A study of Mus musculus with 3 samples.

Results

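The MHC class I and Qa genes described here were 10 genes of the 16742 listed in any of the 3 libraries. They were the heavy chain genes H2-K1, H2-D1, H2-Q4, H2-Q6, H2-Q7, H2-Q9, H2-Q10 and H2-T23, with the light chain gene B2m and the peptide transporter subunit Tap1. They were picked by symbol through their NCBI Gene IDs after their values in these libraries had been seen, so the comparisons with control are given as a description and without a test. All 10 were listed in both leukemia libraries and 8 of the 10 in the control library. H2-Q9 and H2-Q10 were not listed in control and were taken as 0 counts there.

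The libraries were made to compare murine acute promyelocytic leukemia driven by the TBLR1-RARα fusion (TR) with normal immature marrow. The Control library was lineage-negative (lin-) bone marrow cells of C57BL/6 mice of wild type. Both leukemia libraries, TR1 and TR9, were GFP+ bone marrow cells of third-generation TR leukemia mice, also C57BL/6, each line descending by spleen cell transfer into non-irradiated hosts from 1 primary leukemic mouse. All mice were 6 to 8 weeks old, the fusion came from a retroviral vector that also carried GFP, and each library pooled the cells of 3 mice.

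There was 1 library per condition, so no spread between mice was measured and every interval below covers counting error only. Total expected counts were 5488778 in Control, 5571409 in TR1 and 5129662 in TR9. Control cells were obtained by lineage depletion and TR cells by a GFP sort, and the way of isolation cannot be told apart from the disease. In these bulk samples fewer cells of a type and less RNA per cell cannot be told apart either.

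Class I molecules display peptides from inside the cell to CD8 T cells and are ligands for receptors of natural killer cells. A heavy chain pairs with β2-microglobulin, the product of B2m, and takes a peptide that the Tap1-Tap2 pump has carried into the endoplasmic reticulum. H2-K1 and H2-D1 encode the classical heavy chains of this strain. H2-Q6, H2-Q7, H2-Q8 and H2-Q9 lie in the Qa-2 region and encode closely related molecules, H2-T23 encodes Qa-1, which presents leader peptides of other class I chains to the NKG2A receptor, and H2-Q10 encodes a secreted chain best known from liver.

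The heavy chain genes are so alike that a short read can fit several of them, and the letters below show how much. On GRCm38 all 7 heavy chain loci with a gene of their own lie on chromosome 17, from H2-K1 at chr17:33996017-34000347 (minus strand) to H2-T23 at chr17:36029773-36032855 (minus strand). Between them, on the plus strand, lie H2-D1 at chr17:35262730-35267499, H2-Q4 at chr17:35379617-35385290, H2-Q6 at chr17:35424850-35430055, H2-Q7 at chr17:35439155-35443773 and H2-Q10 at chr17:35470089-35474563. Tap1 is at chr17:34187553-34197225 and B2m, away from the complex, at chr2:122147686-122153083.

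The next lines show the last 60 bases of coding exon 2, which encodes the end of the α1 domain in the peptide-binding groove. Capitals mark bases that differ from H2-Q7. They are GRCm38 reference sequence in the sense of the gene, at chr17:35439662-35439721 for H2-Q7, chr17:35425318-35425377 for H2-Q6, chr17:35380114-35380173 for H2-Q4, chr17:35470586-35470645 for H2-Q10, chr17:35263589-35263648 for H2-D1, chr17:33999734-33999793 for H2-K1 and chr17:36032153-36032212 for H2-T23.
H2-Q7: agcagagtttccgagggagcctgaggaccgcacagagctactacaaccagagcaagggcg
H2-Q6: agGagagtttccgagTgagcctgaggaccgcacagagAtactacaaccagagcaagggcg
H2-Q4: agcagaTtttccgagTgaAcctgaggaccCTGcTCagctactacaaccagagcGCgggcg
H2-Q10: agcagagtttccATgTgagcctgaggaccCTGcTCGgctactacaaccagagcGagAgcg
H2-D1: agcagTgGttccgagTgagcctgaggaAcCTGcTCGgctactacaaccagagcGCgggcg
H2-K1: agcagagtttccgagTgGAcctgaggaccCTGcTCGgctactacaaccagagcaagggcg
H2-T23: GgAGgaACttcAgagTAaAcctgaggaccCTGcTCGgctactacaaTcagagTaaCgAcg

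In this stretch H2-Q6 differed from H2-Q7 at 3 of 60 bases, H2-K1 at 9, H2-Q4 at 10, H2-Q10 at 11, H2-D1 at 12 and H2-T23 at 19. The first 60 bases of coding exon 4, which encodes the α3 domain that binds CD8 and the light chain, are shown next for 4 of the genes. They lie at chr17:35442267-35442326 for H2-Q7, chr17:35427864-35427923 for H2-Q6, chr17:35265784-35265843 for H2-D1 and chr17:33997501-33997560 for H2-K1, and capitals again mark differences from H2-Q7.
H2-Q7: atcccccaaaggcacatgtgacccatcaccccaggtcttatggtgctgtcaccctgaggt
H2-Q6: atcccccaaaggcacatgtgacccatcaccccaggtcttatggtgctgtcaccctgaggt
H2-D1: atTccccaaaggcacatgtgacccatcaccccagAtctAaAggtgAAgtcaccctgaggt
H2-K1: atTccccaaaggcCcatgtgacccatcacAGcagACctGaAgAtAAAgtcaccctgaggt

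H2-Q6 and H2-Q7 were identical over these 60 bases, H2-D1 differed at 6 and H2-K1 at 12. Over whole exons, H2-K1 and H2-D1 were identical at 88.0% of the bases of exon 3, which encodes the α2 domain, and at 96.0% of exon 4. H2-Q6 and H2-Q7 matched at 94.9% and 96.1%. Exon 4 had 285 bases in the H2-Q7 transcript used and 276 in that of H2-Q6, and bases without a partner counted as differences. The exon 4 value for this pair is thus too low for the bases that align. H2-T23 stood apart in exon 3, where it matched the other 6 genes at 69.7 to 72.9% of bases.

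How far this can blur a gene's count was gauged by sliding a 50-base window along the GENCODE M21 transcript that carries the accession the files use. The share of windows that also occurred in another gene was 36.8% for H2-Q6, 19.9 to 40.2% for the 3 transcripts of H2-Q7, 34.9% for H2-Q9, 28.8% for H2-T23 and 24.3% for H2-Q4. It was 14.3% for H2-D1, 10.96% for H2-Q10 and 8.79% for H2-K1. For Tap1 it was at most 0.975%, all of it shared with Tap2, and for B2m it was 0. With 100-base windows the shares were 19.3% for H2-Q6, 6.47 to 21.9% for H2-Q7 and 16.4% for H2-Q9. They were 7.28% for H2-T23, 4.64% for H2-D1, 2.84% for H2-Q10, 2.66% for H2-Q4 and 0 for H2-K1. Read length is not given in the sources used here, so which window is nearer to the reads is not known. The H2-Q9 transcript of the files is annotated by GENCODE as a transcript of H2-Q7, and H2-Q9 has no locus of its own in that release. Windows that H2-Q7 and H2-Q9 share with each other are thus left out of the shares given for both, which are too low by an amount not measured. The counts of H2-Q6, H2-Q7 and H2-Q9 are therefore uncertain one by one, and their sums are given beside them. H2-Q4 and H2-T23 also share many 50-base windows with other genes, so their single-gene ratios below carry a like limit.

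**Figure D1:**
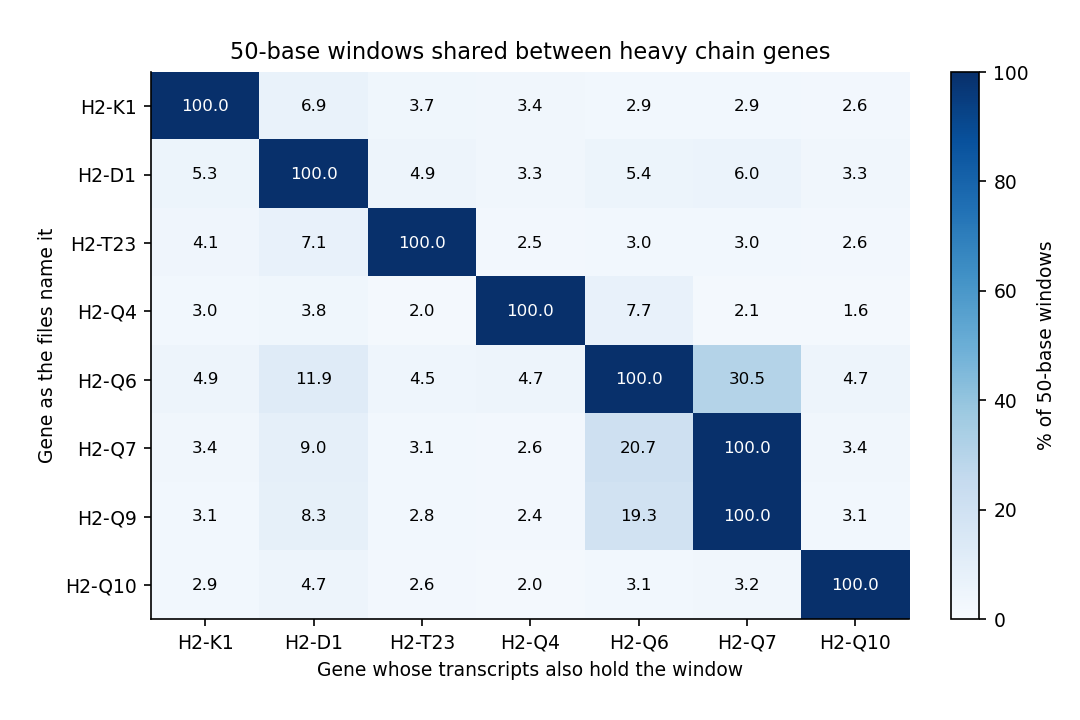
Share of 50-base windows of each heavy chain gene (rows, named as in the files, with the highest value over its transcripts for H2-Q7) that also occur in transcripts of another gene (columns), in percent. Apart from a gene with itself and H2-Q9 with H2-Q7, the darkest cells join H2-Q6 and H2-Q7 (30.5% of H2-Q6 windows, 20.7% of H2-Q7 windows). H2-Q9 reads 100 under H2-Q7 because GENCODE places its transcript in that gene. H2-Q5, which holds 20.1% of the windows of a transcript of H2-Q7, is not among the columns.

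A gene is called higher or lower here when its FPKM (fragments per kilobase of transcript at a common library size, a level per length) differed by at least 2-fold, a log2 ratio of 1, and at least 1 of the 2 libraries had 10 or more expected counts. Against control, 5 of the 10 genes were called higher in TR1 and 8 in TR9, and none was called lower in either. Of all genes tested, 33.7% were called in TR1 (13.0% higher, 20.7% lower) and 32.8% in TR9 (15.1% higher, 17.7% lower). H2-D1, H2-Q7, H2-Q9 and H2-Q10 were called higher in both leukemias, which held for 9.47% of all genes, while 14.5% were called lower in both. Because these contrasts led to the choice of the genes, nothing is read from these counts.

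The median log2 ratio over the 10 genes was 0.99 in TR1 and 1.82 in TR9, against -0.29 and -0.12 over all genes. For the same reason nothing is read from this difference. TMM, a scaling that sets the bulk of genes at no change, moved the ratios up by 0.25 in TR1 and 0.11 in TR9, while conversion to TPM (transcript shares that sum to the same total in each library) moved them down by 0.23 and 0.11. With TMM, 7 of the 10 genes were called higher in TR1, and with TPM 3. Of all calls in TR1, 38.6% were higher, a share that was 50.04% with TMM and 28.4% with TPM.

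**Figure D2:**
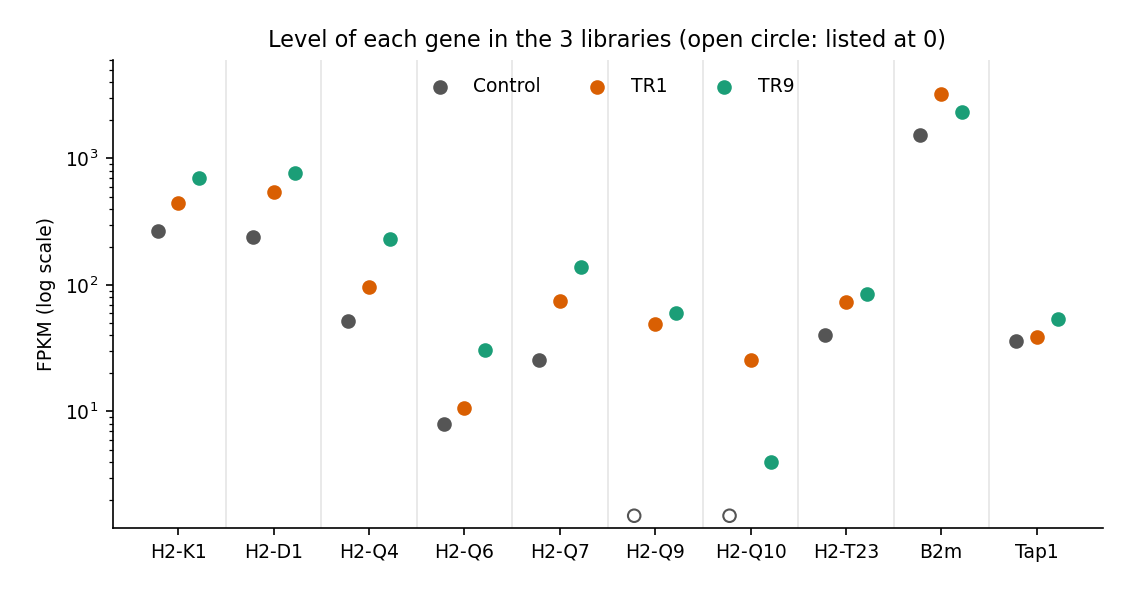
Level of each of the 10 genes in the Control, TR1 and TR9 libraries, in FPKM on a log axis, with 1 point per library and open circles for a gene listed at 0. B2m lies highest in all 3 libraries, H2-K1, H2-D1, the H2-Q genes other than H2-Q10, H2-T23 and Tap1 lie highest in TR9, and B2m and H2-Q10 lie highest in TR1.

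The classical heavy chain genes were among the most abundant transcripts of all 3 libraries, and both were higher in the leukemias, TR9 above TR1. H2-K1 had 2444 expected counts in Control, with 4146 in TR1 and 5939 in TR9, or 268, 447 and 697 FPKM. It was 1.67-fold higher than control in TR1 (log2 0.74, 95% counting interval 0.66 to 0.81), short of the 2-fold threshold, and 2.60-fold higher in TR9 (log2 1.38, 1.31 to 1.45). After TMM scaling its log2 ratio in TR1 was 0.99.

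H2-D1 had 2258 expected counts in Control, with 5199 in TR1 and 6844 in TR9, or 238, 539 and 771 FPKM. It was 2.26-fold higher in TR1 (log2 1.18, 1.11 to 1.25) and 3.24-fold higher in TR9 (log2 1.70, 1.63 to 1.77). With TPM the TR1 ratio was 0.95 and no longer called. H2-D1 was below H2-K1 in Control and above it in both leukemias: the FPKM ratio of H2-D1 to H2-K1 was 0.887 (0.838 to 0.940) in Control, 1.205 (1.16 to 1.26) in TR1 and 1.11 (1.07 to 1.15) in TR9. The 3 intervals of this ratio do not overlap, and since both genes were read from the same library it does not depend on the scaling.

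Counts of the 2 classical genes together, 4702 in Control, 9345 in TR1 and 12783 in TR9, gave log2 ratios of 0.97 (0.92 to 1.02) and 1.54 (1.49 to 1.59). The reads that H2-K1 and H2-D1 share with each other fall within this sum.

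H2-T23, which encodes Qa-1, had 288 expected counts in Control, with 537 in TR1 and 565 in TR9, or 40.4, 73.9 and 84.5 FPKM. Its log2 ratio was 0.87 (0.66 to 1.08) in TR1 and 1.07 (0.86 to 1.28) in TR9, so that both intervals held the threshold. The TR1 ratio was 1.12 with TMM and the TR9 ratio 0.96 with TPM. TR1 and TR9 were close for this gene, with a log2 ratio of TR9 to TR1 of 0.19 (0.02 to 0.37). Set against H2-K1 in the same library, H2-T23 stood at 0.1504 (0.133 to 0.170) in Control, 0.165 (0.151 to 0.181) in TR1 and 0.121 (0.111 to 0.132) in TR9, with Control and TR1 overlapping and TR9 below both.

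The H2-Q genes made the widest range of values. Summed over the 5 members, which removes the division of shared reads among them, they had 740 expected counts in Control, with 2161 in TR1 and 3701 in TR9, or 135, 388 and 721 CPM (expected counts at a common library size, with no correction for length). The sum was 2.88-fold higher than control in TR1 (log2 1.52, 1.40 to 1.65) and 5.35-fold higher in TR9 (log2 2.42, 2.31 to 2.54). With all 8 H2-Q genes listed, H2-Q2, H2-Q5 and H2-Q8 included, the log2 ratios were 1.46 and 2.46. The sum over the Qa-2 genes H2-Q6 to H2-Q9, 272, 1114 and 1977 counts, gave 2.01 (1.82 to 2.21) and 2.96 (2.78 to 3.15).

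H2-Q4 was the most abundant of them in each library. It had 509 expected counts in Control, with 967 in TR1 and 2131 in TR9, or 51.9, 96.9 and 232 FPKM. Its log2 ratio was 0.90 (0.75 to 1.06) in TR1 and 2.16 (2.02 to 2.31) in TR9, and the TR1 ratio passed the threshold with TMM at 1.15. Against H2-K1 of the same library it was at 0.193 (0.175 to 0.213) in Control, 0.217 (0.202 to 0.233) in TR1 and 0.334 (0.317 to 0.350) in TR9, with TR9 clear of the others.

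H2-Q7, a Qa-2 gene, had 189 expected counts in Control, with 503 in TR1 and 915 in TR9, or 25.7, 74.3 and 138 FPKM. Its log2 ratios were 1.53 (1.29 to 1.78) and 2.42 (2.19 to 2.65). H2-Q9 had 0 expected counts in Control, with 423 in TR1 and 473 in TR9, or 49.6 and 60.2 FPKM in the leukemias. Against a floor of 3 counts in the Control library its level in TR1 was at least 139-fold higher, and that in TR9 at least 169-fold. That bound takes RSEM's division of reads as it stands. H2-Q7 and H2-Q9 together, which no division between them can move, had 189, 926 and 1388 counts and log2 ratios of 2.27 (2.04 to 2.50) and 2.97 (2.75 to 3.20).

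H2-Q6 was the lowest of the 5 H2-Q members in TR1 by FPKM and had few counts throughout, 42.2 in Control, 57.6 in TR1 and 152 in TR9, or 8.01, 10.7 and 30.8 FPKM. Its TR1 ratio could not be told from 0 at this depth (log2 0.42, -0.17 to 1.03), while in TR9 it was 1.94 (1.44 to 2.47).

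H2-Q10 ran in another order. It was listed at 0 in Control, had 209 expected counts in TR1 and 29.9 in TR9, or 25.7 and 3.98 FPKM. That was at least 68.8-fold and at least 10.7-fold higher than the 3-count floor of Control, and 6.45-fold lower in TR9 than in TR1 (log2 -2.69, -3.29 to -2.13). Of 10 hepatocyte markers looked up because the gene is best known from liver, Alb, Ttr, Fga, Fgb, Ahsg and Apoc3 were listed in no library, and the other markers but Trf had at most 5 counts. Trf, which encodes transferrin, had 346, 1209 and 1833 counts and made nearly all of the summed list (64.0, 218 and 358 CPM). Whether liver RNA had a part in the H2-Q10 counts was not tested. Of H2-Q10 windows of 50 bases, 10.96% occur in another gene, most of them in H2-Q1.

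**Figure D3:**
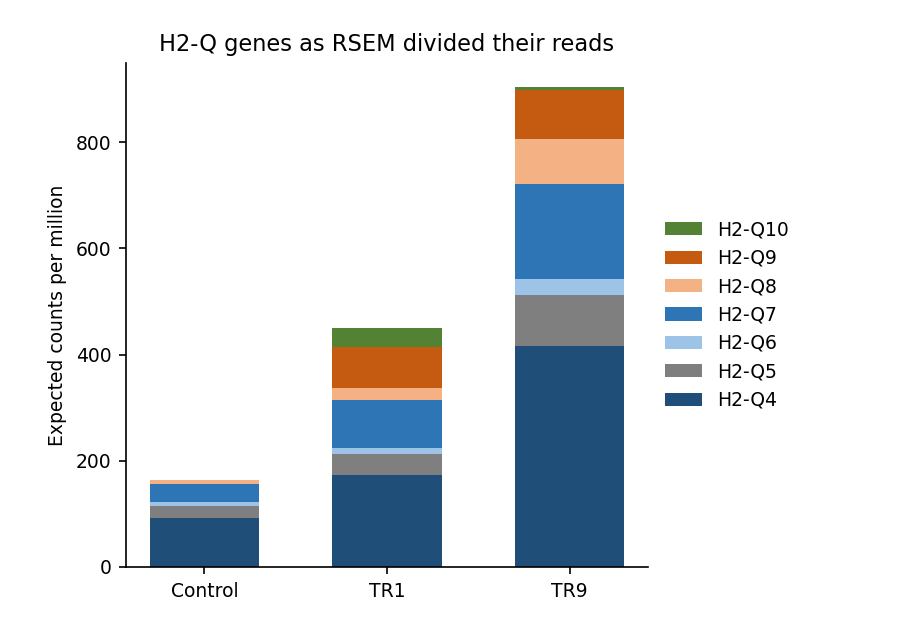
Expected counts per library size (CPM) of 7 H2-Q genes in each library, stacked by gene as RSEM divided the reads (bars start at 0, and H2-Q2, at 0.0233% or less of the H2-Q counts, is left out). H2-Q4 makes the largest share of each bar, and the H2-Q9 and H2-Q10 segments appear in TR1 and TR9 and not in Control.

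As RSEM divided the reads, the make-up of the H2-Q counts differed between libraries as well as their sum. Out of all H2-Q counts, H2-Q4 took 56.5% in Control, 38.5% in TR1 and 45.9% in TR9. H2-Q7 held close to the same share in each, 21.0%, 20.02% and 19.7%, but its division from H2-Q9 is uncertain. H2-Q7 and H2-Q9 together had 189 of 900 H2-Q counts in Control, 926 of 2513 in TR1 and 1388 of 4638 in TR9. H2-Q9 took 0% in Control, which allows a share of up to 0.333%, 16.8% in TR1 and 10.19% in TR9, and H2-Q10 took 0%, 8.34% and 0.644%. H2-Q8, a Qa-2 gene outside the 10, went from 4.51% in Control to 5.19% in TR1 and 9.43% in TR9.

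B2m, the light chain gene, was the highest of the 10 in each library and, like H2-Q10 and unlike the other 7 heavy chains, was higher in TR1 than in TR9. It had 7043 expected counts in Control, with 15120 in TR1 and 10029 in TR9, or 1536, 3239 and 2337 FPKM. Its log2 ratio was 1.08 (1.04 to 1.12) in TR1, 0.85 with TPM, and 0.61 (0.56 to 0.65) in TR9. The FPKM of H2-K1 and H2-D1 together, set against B2m in the same library, was 0.330 (0.318 to 0.342) in Control, 0.304 (0.297 to 0.312) in TR1 and 0.628 (0.612 to 0.645) in TR9. The proportion of classical heavy chain to light chain RNA was slightly lower in TR1 than in Control and highest in TR9, and no 2 of the intervals overlap. As a ratio within 1 library this does not depend on the scaling, but it takes RSEM's division of heavy chain reads as it stands.

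Tap1, which encodes a chain of the peptide pump, had the smallest ratios to control of the 10, with an interval that overlapped that of B2m in TR9. It had 587 expected counts in Control, with 640 in TR1 and 814 in TR9, or 36.1, 38.7 and 53.6 FPKM. Its log2 ratio in TR1 was 0.10 (-0.06 to 0.26), which became 0.35 with TMM and -0.13 with TPM, so that its direction rests on the scaling. In TR9 it was 0.57 (0.41 to 0.73). The other chain, Tap2, had 537, 559 and 795 counts and log2 ratios of 0.03 (-0.14 to 0.21), which was -0.19 with TPM, and 0.66 (0.50 to 0.82). The FPKM ratio of Tap1 to Tap2 was 0.9202 in Control, 0.964 in TR1 and 0.864 in TR9, with overlapping intervals.

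**Figure D4:**
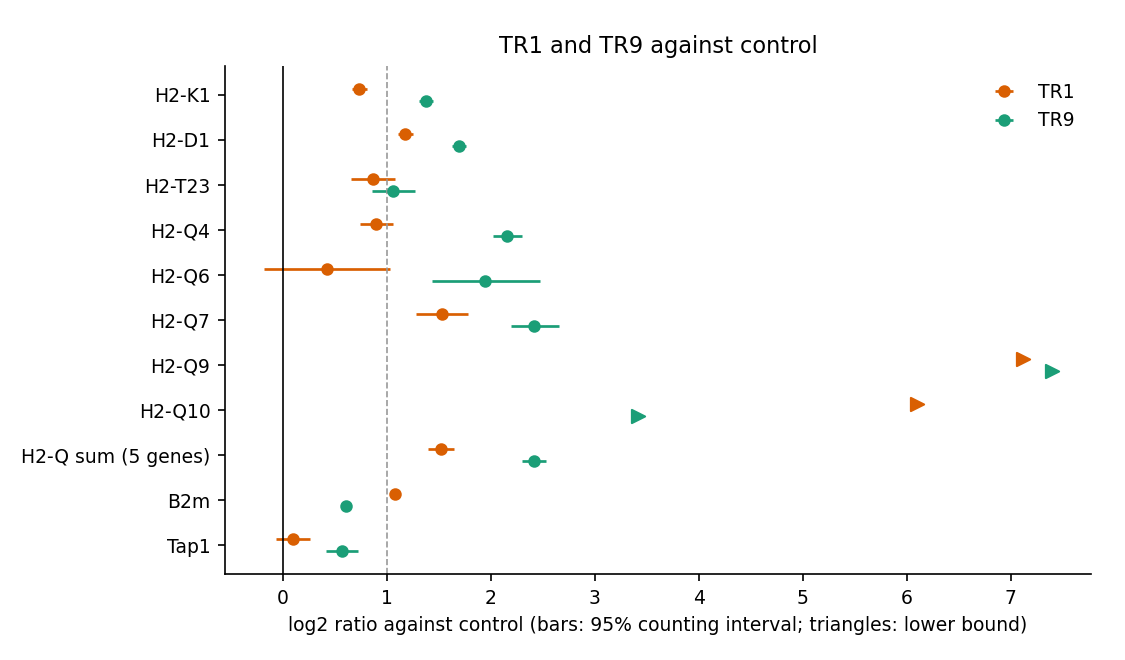
log2 ratio of each gene and of the 5 H2-Q genes summed, TR1 and TR9 against control, with 95% counting intervals as bars and a dashed line at the 2-fold threshold. Triangles mark lower bounds for genes at 0 in control. TR9 lies to the right of TR1 for every gene but H2-Q10 and B2m.

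Ordered by FPKM, Control ran B2m, H2-K1, H2-D1, H2-Q4, H2-T23, Tap1, H2-Q7 and H2-Q6, with H2-Q9 and H2-Q10 at 0. H2-T23 and Tap1 were neighbours whose counting intervals overlapped. TR1 ran B2m, H2-D1, H2-K1, H2-Q4, H2-Q7, H2-T23, H2-Q9, Tap1, H2-Q10 and H2-Q6, and H2-Q7 and H2-T23 overlapped. TR9 ran B2m, H2-D1, H2-K1, H2-Q4, H2-Q7, H2-T23, H2-Q9, Tap1, H2-Q6 and H2-Q10, and H2-Q9 and Tap1 overlapped.

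Between the 2 leukemias, H2-Q4 and H2-Q6 were called higher in TR9 and H2-Q10 lower, 3 of the 10 genes, where 14.8% of all genes were called, 9.48% higher and 5.28% lower. Of the 10 genes, 8 had a log2 ratio of TR9 to TR1 above 0, with a median over the 10 of 0.49 against 0.13 over all genes. The genes were chosen after their values were seen, so nothing is read from these counts and medians. The log2 ratio was 1.26 (1.15 to 1.37) for H2-Q4 and 1.52 (1.07 to 1.98) for H2-Q6. It was 0.89 (0.73 to 1.05) for H2-Q7, 0.64 (0.58 to 0.70) for H2-K1, 0.52 (0.47 to 0.57) for H2-D1, 0.47 (0.32 to 0.62) for Tap1 and 0.28 (0.09 to 0.47) for H2-Q9. B2m was lower in TR9, at -0.47 (-0.51 to -0.43). The H2-Q sum was 1.86-fold higher in TR9 (log2 0.90, 0.82 to 0.97), and the sum of H2-K1 and H2-D1 1.49-fold higher (log2 0.57, 0.53 to 0.61). With TMM these were 0.76 and 0.44, and with TPM 1.01 and 0.69.

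The promoters of the class I heavy chain genes carry a well-studied set of elements, and RefSeq promoters (GRCm38.p6, 250 bases before to 50 after the annotated start) were read for 9 of the 10 genes, with H2-K1 having 2. The motifs searched, on both strands, were GGGATTCCC (a kappaB site), GTTTCACTT (the core of an interferon-stimulated response element), TGACG (a cAMP response element core) and ATTGG (the reverse of a CCAAT box). Of 32851 mouse promoters 0.353%, 0.399%, 20.8% and 37.4% held each of them, and 4 promoters (0.0122%) held all of them. Those 4 were the 2 of H2-K1 and those of H2-D1 and H2-Q7. Because the motifs were chosen as known elements of class I promoters, nothing is read from that rarity. No 2 of the matches overlapped in the promoters printed.

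The promoter of H2-Q7 (chr17:35438905-35439204, plus strand) shows all 4 motifs in capitals, and that of H2-D1 (chr17:35262844-35263143, plus strand) has the same order of elements. Those of H2-Q10 (chr17:35469839-35470138, plus strand) and B2m (chr2:122147437-122147736, plus strand) are shown for their differing content.
H2-Q7: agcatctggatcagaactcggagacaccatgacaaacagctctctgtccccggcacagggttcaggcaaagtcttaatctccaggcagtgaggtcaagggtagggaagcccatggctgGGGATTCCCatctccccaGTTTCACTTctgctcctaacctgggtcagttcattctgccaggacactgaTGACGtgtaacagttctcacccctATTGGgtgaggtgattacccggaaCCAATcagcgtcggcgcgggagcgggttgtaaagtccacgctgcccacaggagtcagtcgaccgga
H2-D1: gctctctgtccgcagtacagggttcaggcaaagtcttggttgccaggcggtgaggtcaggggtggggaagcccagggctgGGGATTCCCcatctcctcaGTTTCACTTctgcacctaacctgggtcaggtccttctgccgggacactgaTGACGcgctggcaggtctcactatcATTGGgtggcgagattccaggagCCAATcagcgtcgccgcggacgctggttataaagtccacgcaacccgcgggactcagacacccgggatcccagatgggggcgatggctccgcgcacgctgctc
H2-Q10: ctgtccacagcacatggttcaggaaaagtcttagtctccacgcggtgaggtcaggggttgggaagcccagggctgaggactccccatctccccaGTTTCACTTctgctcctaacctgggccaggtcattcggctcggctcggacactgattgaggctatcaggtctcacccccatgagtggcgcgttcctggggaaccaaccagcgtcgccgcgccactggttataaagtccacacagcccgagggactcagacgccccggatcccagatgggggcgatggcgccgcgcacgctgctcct
B2m: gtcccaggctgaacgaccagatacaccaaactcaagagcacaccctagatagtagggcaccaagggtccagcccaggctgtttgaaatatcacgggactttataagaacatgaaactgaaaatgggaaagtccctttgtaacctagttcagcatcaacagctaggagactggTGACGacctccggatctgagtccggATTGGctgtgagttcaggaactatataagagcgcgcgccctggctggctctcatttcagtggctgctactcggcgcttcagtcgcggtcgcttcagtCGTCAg

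H2-Q6 held all but TGACG, and H2-Q4 all but GGGATTCCC. H2-Q10 held GTTTCACTT alone, H2-T23 ATTGG alone, and B2m and Tap1 TGACG and ATTGG. A match is a string of letters and not a measured binding site, and no match says only that these letters are not in the window. The 3 genes with all 4 motifs had log2 ratios of 0.74 to 1.53 in TR1 and 1.38 to 2.42 in TR9. Of the others, H2-Q4 had 0.90 and 2.16, H2-Q6 0.42 and 1.94, and H2-T23 0.87 and 1.07. B2m had 1.08 and 0.61, Tap1 0.10 and 0.57, and H2-Q10 6.10 and 3.41 against the 3-count floor. A link between motifs and ratios was not tested.

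Other class I genes of the H2 complex, 25 by name, were read beside the 10. Of these 12 were listed and 7 had enough counts, of which 3 were called higher in TR1, 5 in TR9 and none lower in either, with medians of 0.87 and 1.78. Over all genes 13.0% were called higher in TR1 and 15.1% in TR9. H2-Q8 had 40.6 expected counts in Control, with 130 in TR1 and 437 in TR9 (log2 1.66 and 3.53). Gm11127 had 18.9, 171 and 192 counts (log2 3.15 and 3.44). H2-M3, which encodes a chain known to present formylated peptides, had 19.1, 40 and 61.5 (log2 1.04 and 1.78, and 0.82 in TR1 with TPM). The other calls in TR9, named after their values were seen, were H2-Q5 (119, 222 and 499 counts, log2 2.16) and H2-T22 (189, 288 and 446, log2 1.33). Gm11127 shares windows with H2-D1 and H2-T23, and the sharing of H2-Q8 was not measured, so the counts of both are uncertain in the same way. Of 5 class I-like genes outside H2 with enough counts, Ulbp1, a stress ligand of the NKG2D receptor, was called higher in both, with 34, 194 and 172 counts. Named after their values were seen, Fcgrt was called lower in TR1 (40, 3 and 22 counts) and Mr1 higher in TR9 (65, 64 and 129, log2 1.08, which was 0.98 with TPM).

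The peptide-loading genes had medians nearer to 0 than the heavy chains, whose medians were 1.04 and 2.05. Because the heavy chains were chosen with these ratios known, nothing is read from that difference. Of 9, B2m and Tap1 included, 1 (B2m) was called higher in TR1 and 1 in TR9, where 13.0% and 15.1% of all genes were. The medians of the 9 were 0.14 and 0.57. With TPM the TR1 count was 0, and with TMM the TR9 count was 2. In TR9 the called gene was Tapbpl, which encodes the peptide editor TAPBPR (103, 132 and 214 counts, log2 0.33 in TR1 and 1.15 in TR9). Tapbp, or tapasin, which bridges the pump to the heavy chain, had 685, 999 and 1213 counts and log2 ratios of 0.52 and 0.92, the second 1.03 with TMM. Erap1, the trimming peptidase, stood at 0.14 and 0.47, the first turning to -0.08 with TPM. The chaperone Canx was below control in both at -0.44 and -0.66.

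The immunoproteasome makes many of the peptides that class I molecules carry. Of its 3 catalytic and 2 activator subunits listed, none was called against control in TR1 or TR9 (all genes: 33.7% and 32.8%). Medians were -0.15 and 0.31, the first within the TMM shift of 0.25. Psmb9 had 148, 161 and 232 counts and log2 ratios of 0.10 and 0.74, with -0.13 in TR1 under TPM. Psmb10 stood at -0.30 and 0.25, Psme1 at -0.13 and 0.36 and Psme2 at -0.15 and -0.25, and with TMM the TR1 ratios of Psme1 and Psme2 were 0.12 and 0.10. Psmb8 had 458, 272 and 531 counts and log2 ratios of -0.78 and 0.31, the first -1.003 with TPM and then called lower. It was called higher in TR9 than in TR1 (log2 1.09), a call that TMM took away (0.95).

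Among 20 genes that regulate class I transcription, 2 were called higher and 2 lower in TR1, and 5 higher and 1 lower in TR9, with medians of 0.03 and 0.25. Over all genes 33.7% were called in TR1 and 32.8% in TR9, and nothing is read from the counts of this list. Nlrc5, the transactivator of class I genes, had 216 expected counts in Control, with 431 in TR1 and 539 in TR9. Its log2 ratio was 0.97 (0.73 to 1.21) in TR1, just short of the threshold and 1.22 with TMM, and 1.42 (1.19 to 1.65) in TR9. Irf1 had 122, 165 and 237 counts (log2 0.40 and 1.05, the second 0.94 with TPM). It encodes a factor that carries interferon signals to class I promoters. Ifngr1, a chain of the interferon-γ receptor, was called higher in both leukemias (1186, 3359 and 5349 counts, log2 1.48 and 2.27), as was Stat3 (1.46 and 1.19). The other chain of that receptor, Ifngr2, named after its values were seen, had 170, 114 and 90.8 counts and log2 ratios of -0.60 (-0.95 to -0.25) and -0.81 (-1.19 to -0.43), not called in either. Jak2, a kinase of the receptor, was called lower in both (-1.05 and -1.10, the first -0.80 with TMM). Irf8, named after its values were seen, was the other gene called lower in TR1, with 1059, 39 and 644 counts.

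Over all genes, 13.0% were called higher and 20.7% lower in TR1, and 15.1% higher and 17.7% lower in TR9. Of the interferon-stimulated genes, 6 of 19 tested were called higher and 4 lower in TR1, and 11 of 21 higher and 1 lower in TR9, with medians of 0.39 and 1.01. The TR1 split was 8 higher and 3 lower with TMM, 4 and 6 with TPM, and 6 and 0 with a pseudocount of 1 FPKM, which left 7 and 0 in TR9. Oas2, an antiviral enzyme, had 25, 773 and 557 counts and Oasl2 65, 291 and 591, while Ifi44 had 14.1, 2 and 0.

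The class II genes, which present peptides to CD4 T cells, went the other way. Of 8 with enough counts, 7 were called lower in both leukemias, which held for 14.5% of all genes. H2-Ab1 had 48 expected counts in Control, with 0 in TR1 and 2 in TR9, H2-Ob 58, 0 and 1, and H2-Aa 19, 0 and 6. Against the 3-count floor the level of H2-Ab1 was lower by a factor of at least 16.2 (TR1) and 14.95 (TR9). The exception, named after its values were seen, was H2-DMb1, with 90.4, 122 and 185 counts and log2 ratios of 0.41 and 1.13.

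**Figure D5:**
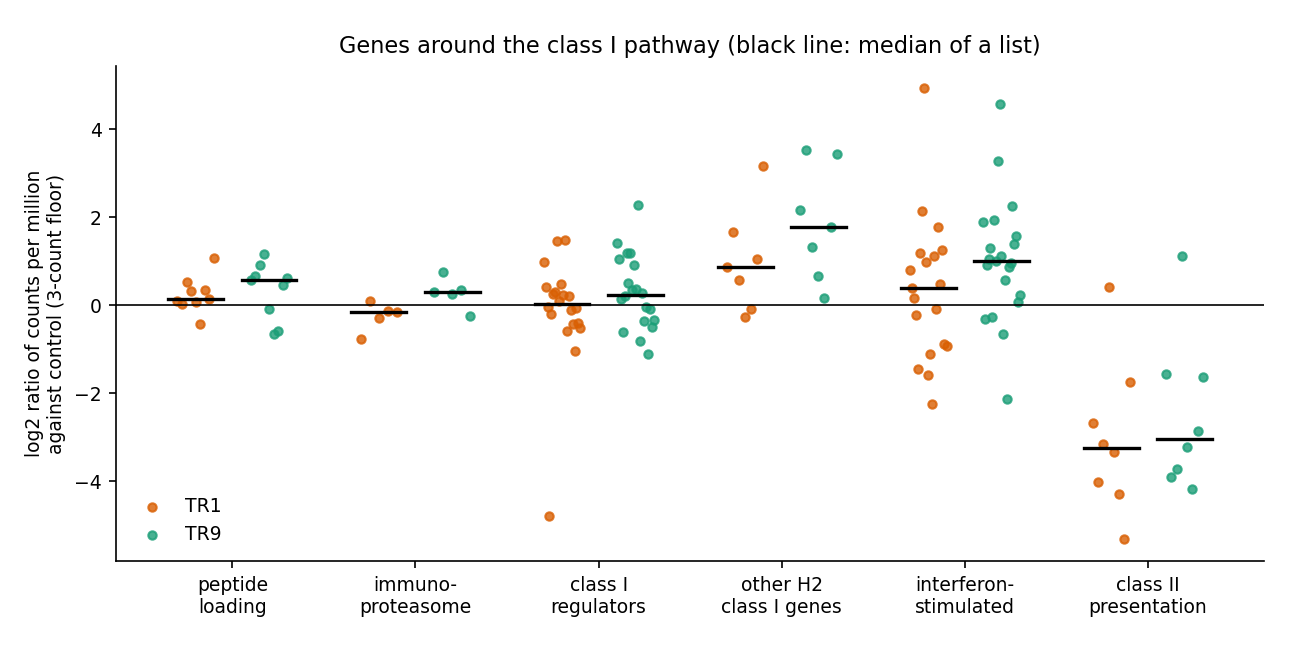
log2 ratio of CPM against control for each gene with 10 or more counts in at least 1 of the 2 libraries, in 6 lists around the class I pathway, with counts under 3 raised to 3. There is 1 point per gene, TR1 and TR9 side by side, and a black line at each list's median. The other H2 class I genes lie mostly above 0 in both leukemias, the class II genes mostly below.

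The cells of the libraries differed widely in type, beside every value above. For scale, 14.5% of all genes were called lower in both leukemias and 9.47% higher in both. All 10 erythroid markers were called lower in both leukemias, their sum going from 3688 CPM in Control to 188 (TR1) and 163 (TR9), as were all 10 megakaryocyte markers (1474, 13.9 and 12.02). Promyelocyte markers summed to 7738, 32749 and 28400 CPM, with 7 of 7 called higher in TR1 and 6 in TR9. Late granulocyte markers summed to 87.7, 11173 and 6485, with 10 of 10 and 8 of 10 called higher.

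Markers of other immune cells were at low levels or mixed in direction. Of 10 monocyte and macrophage markers 8 were called lower in both. Their sum still went from 336 CPM to 645 and 1052, since Vcam1 alone had 471, 3139 and 5110 counts. Of 8 dendritic cell markers tested, 2 were called higher and 4 lower in TR1, and 0 higher and 4 lower in TR9, with a sum of 189, 224 and 128 CPM, and Zbtb46 and Cd209a were at 0 in both leukemias. T cell markers summed to 29.6, 16.2 and 20.3 CPM, and of 5 tested 1 was called higher and 2 lower in both leukemias. B cell markers summed to 17.3, 13.8 and 169 CPM. Of 3 tested, Igll1 (2, 63 and 847 counts) and Vpreb1 (1, 14 and 20) were called higher in both leukemias, while Cd79b, with 69 counts in Control, was at 0 in both. NK cell markers summed to 77.9, 156 and 124 CPM, nearly all of it Nkg7. Nkg7, the 1 gene tested, was called higher in TR1 (log2 1.03, which was 0.81 with TPM) and not called in TR9. The others had too few counts for a call. Ncr1 had 8, 0 and 0 counts, Klrd1 2, 0 and 0 and Klrb1c 3.55, 2 and 0, while Eomes had 0, 4.74 and 1.07 and Prf1 2, 3 and 7. The part of cell type in the class I values was not tested.

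By the same pair of log2 ratios, the genes nearest to H2-K1 among 8727 with 100 or more counts in at least 1 library were Irf2bp2, Kremen1 and Cox6b2, the first within 0.0176, and 21 genes lay within 0.1. Nearest to B2m were Degs1, Acap2 and Hacd2, with 20 genes within 0.1. Nearest to the H2-Q sum were C1qtnf6, Tmx4 and Prdx5, with 1 gene within 0.1. The likeness is over 2 ratios from 3 libraries, which share the control.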

How the data were processed

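RNA of 3 pools of marrow cells (Control, TR1, TR9) had been sequenced on 1 library each. The authors mapped the reads with BWA and Bowtie to mm9 (per the labels) and estimated expression with RSEM, whose versions are not given in the sources used here. They deposited expected counts (estimated counts per gene, in which RSEM divides shared reads and which need not be whole) and FPKM per NCBI Gene ID. The files hold no coordinates. Gene names were matched for 16698 of 16742 IDs. The 10 genes, the lists and the named-gene rule were chosen with earlier results of these data known.

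Ratios are log2 of FPKM, floored at 0.01, or of summed CPM (counts scaled to the library's total). A call needs a log2 ratio of 1 in size and 10 expected counts in 1 of the 2 libraries. Intervals are 95% exact conditional binomial (Clopper-Pearson) and leave out the division of reads. A fold against 3 counts or fewer is taken at 3 counts, which is 0.538 to 0.585 CPM, and leaves out counting error. With 1 library per condition there was no test. Named are the 10 genes, the loading, immunoproteasome and key regulator genes, and up to 3 genes per list called alike in both leukemias with the largest ratios. Alternatives were TMM, median-of-ratios, upper-quartile and TPM scaling, CPM, a pseudocount of 1 FPKM, other minimums, an added Poisson false discovery rate of 0.001 and a log2 threshold of 2. Python 3.11.15 and edgeR 4.0.16 were used, and the calculations were tested on simulated data. Sequences were from GENCODE M21 and RefSeq. The window shares use GENCODE transcripts, which can differ in length from those of the files. Values of 2 listed genes are not reported here.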

Additional observations from a re-analysis of the deposited data

Results flagged for a closer look

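In the antigen-processing lists 3 genes had ratios on opposite sides of 0 in the 2 leukemias, each with a counting interval that left out 0. With 1 library per condition the difference was not tested. Calr, the chaperone calreticulin, stood at a log2 ratio of 0.072 (TR1) and -0.089 (TR9). With TMM its ratios were 0.32 and 0.02, and with TPM -0.15 and -0.20, so that the opposition rests on the scaling. Pdia3, the thiol oxidoreductase of the loading complex, had 0.33 in TR1 and -0.59 in TR9, with the same directions under TMM (0.58 and -0.48) and TPM (0.11 and -0.70). Psmb8, an immunoproteasome subunit, had -0.78 in TR1 and 0.31 in TR9, also with the same directions under TMM (-0.53 and 0.42) and TPM (-1.003, past the threshold, and 0.20).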

How the results depend on the processing

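No paired analysis was possible because each condition had 1 library, and no replicate could be left out. Called genes among the 10 numbered 5 in TR1 and 8 in TR9 against control and 3 between the leukemias. With TPM scaling the TR1 count was 3, and with a log2 threshold of 2 the counts were 2, 4 and 1. The other 26 of 30 alternative counts lay within 1.5 times the main count. The log2 ratio of the H2-Q sum in TR1, 1.52, was 1.77 with TMM, 1.76 with median-of-ratios, 1.74 with upper-quartile and 1.299 with TPM scaling. For TR9 against TR1, 0.90, it was 0.76, 0.78, 0.79 and 1.01 in the same order. Summing H2-Q6 to H2-Q9 gave 2.01 in TR1 and 2.96 in TR9, and all H2-Q genes gave 1.003 between the leukemias. Of 180 alternative ratios of single genes, 124 stayed inside the counting interval and 56 did not; Tap1 in TR1 crossed 0 with TPM without leaving its side of the threshold. Counts over all genes moved more. Without a count minimum, 2809 genes were higher and 4306 lower in TR1, 3210 and 3767 in TR9, and 2669 and 1772 in TR9 against TR1. With a log2 threshold of 2 these were 782 and 1320, 833 and 1113, and 381 and 201. Between the leukemias a pseudocount of 1 FPKM left 592 and 370, and the Poisson criterion 677 and 363, of 1112 and 620. Mouse-to-mouse variation is unmeasured, and few counts widen the intervals of H2-Q6 and of H2-Q10 in TR9.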
